A study of Homo sapiens with 7 samples.

Results

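sPTK7 cells, which make the soluble ectodomain of PTK7, were set directly against Chz cells, which make full-length PTK7 with the Chuzhoi mutation. The comparison took in every gene detected on either array with a detection p under 0.05. This p gives the fraction of negative control probes on that array whose signal reached that of the probe. This rule gave 11995 genes, 59.8% of the 20045 genes with a probe. On at least 1 of the 7 arrays of the study 13589 genes were detected. Of the 11995 genes, 10379 were detected on both arrays, 647 on the sPTK7 array alone and 969 on the Chz array alone.

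RNA came from HT1080 cells, a human fibrosarcoma line with little PTK7 of its own and with active MT1-MMP and ADAM proteases, and from 6 stably transfected HT1080 lines grown for 72 h, with 1 Illumina HumanHT-12 v4 array per line. sPTK7 cells expressed the N-terminal soluble fragment with a C-terminal FLAG tag. Chz cells expressed the full-length receptor with an Ala-Asn-Pro insertion that opens an additional MT1-MMP cleavage site in the ectodomain. The other 5 arrays, used here only as a scale, held HT1080 cells labelled as a scrambled control, shPTK7 cells (a pool of 3 silenced clones), PTK7 cells with the full-length receptor, and 2 lines with C-terminal fragments, cPTK7/622-1070 and cPTK7/726-1070.

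PTK7 is a pseudokinase that works as a Wnt co-receptor and as a regulator of planar cell polarity, the coordinated orientation of cells within a sheet. MT1-MMP and ADAM proteases cut its immunoglobulin-like ectodomain loose, and γ-secretase then frees the intracellular part. sPTK7 corresponds to the shed ectodomain and carries no membrane anchor, whereas the Chz protein starts as a membrane receptor with more than the usual number of places to be cut.

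The signals were background-corrected, normalized over the 7 arrays and expressed as log2, and all levels below are on this normalized log2 scale. A gene was called when the sPTK7 and Chz arrays differed at least 2-fold and the brighter array detected it. A signal under the lowest detected signal of its array (5.89 on the sPTK7 array and 5.82 on the Chz array) was raised to that floor, so that a fold against an undetected gene is a lower bound and is given as "at least". With 1 array for each line no difference could be set against a spread between replicates, and no p was computed for any gene. Arrays of separately transfected lines also carry whatever differs between the selected cells, which cannot be told apart from the construct.

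Of 11995 genes, 230 were higher in sPTK7 than in Chz cells (1.92%) and 278 were lower (2.32%), 508 in all (4.24%). The difference was at least 4-fold for 36 higher and 44 lower genes (0.667% in both directions together), and at least 8-fold for 10 and 10. The median fold was 2.36 among the higher and 2.40 among the lower genes, and 64 of 230 and 87 of 278 folds were lower bounds. Over all genes the median log2 ratio of sPTK7 over Chz was 0.02, with quartiles of -0.26 and 0.27. The threshold cut through a dense part of the distribution, since 64 called genes lay under 2.05-fold and 75 uncalled genes at 1.95-fold or more. A second detected probe existed for 129 called genes, and of 153 such probes 128 (83.7%) pointed the same way, 49 (32.0%) also passed the call and 25 (16.3%) pointed the other way.

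**Figure D1:**
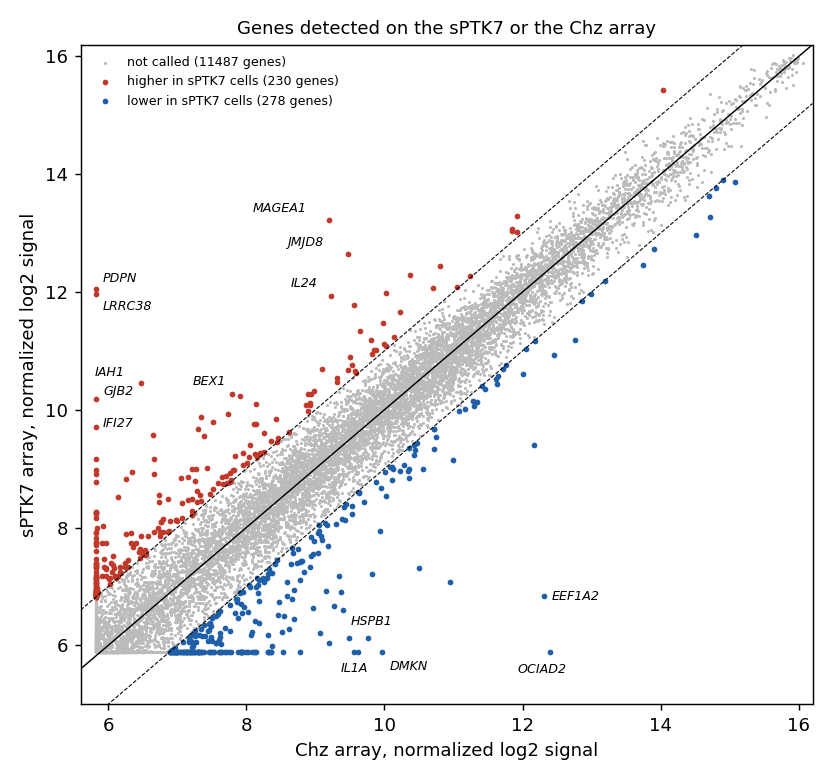
Normalized log2 signal of each gene on the sPTK7 array (vertical axis) and the Chz array (horizontal axis), with equality as a solid line and 2-fold differences as dashed lines. Red points are the 230 genes called higher and blue points the 278 called lower in sPTK7 cells, and the rows of points at the left and lower edges are genes at the floor of the array that did not detect them.

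The 2 lines were nearer to each other than most lines of the study were. Among the 21 pairs of arrays the sPTK7 and Chz pair had the 7th fewest called genes, and the 3rd fewest among the 15 pairs without HT1080 cells. The sPTK7 array differed from the HT1080 array by 500 genes (4.16% of 12006) and the Chz array by 515 (4.23% of 12177), so the distance between sPTK7 and Chz cells was about that of either line from the control. PTK7 cells, with the full-length receptor, stood 937 genes from sPTK7 cells and 1251 from Chz cells, the largest count of any pair. The place of the pair moved to 10th with 75th percentile scaling or without the floor, and to 14th without normalization between arrays.

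Each called gene was then placed against the range of the other 5 lines, which are different lines and not replicates. sPTK7 cells alone lay outside that range for 161 of 508 genes (81 higher, 80 lower), and Chz cells alone for 175 (69 higher, 106 lower). The 2 lines lay on opposite sides of it for 102 genes and on the same side for 30, and for 40 genes both were inside. When a distance of at least 2-fold from the other 5 lines was asked, sPTK7 cells alone stood apart for 53 genes, Chz cells alone for 56, both on the same side for 8, and no gene had the lines 2-fold out on opposite sides. Over all 11995 genes the same classes held 1913, 3122, 501, 1854 and 4605 genes by any distance. By at least 2-fold they held 79 genes for sPTK7 cells alone, 81 for Chz cells alone, 24 on the same side and 0 on opposite sides.

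**Figure D2:**
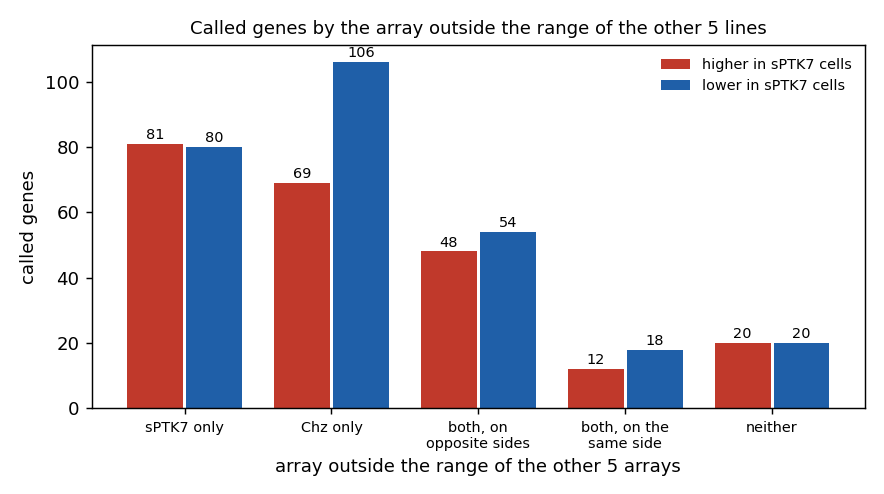
Number of called genes by which array lay outside the range of the other 5 arrays, with genes higher in sPTK7 cells in red and genes lower in blue. sPTK7 cells alone were outside for 81 and 80 genes, Chz cells alone for 69 and 106.

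The genes that set sPTK7 cells apart upward were led by PDPN, a mucin-type transmembrane glycoprotein that binds ezrin and the platelet receptor CLEC-2. PDPN measured 12.05 in sPTK7 cells and was undetected in Chz cells, at least 75.2-fold higher in sPTK7 cells. The other 5 lines read 5.91 to 7.17. LRRC38, an auxiliary subunit of BK potassium channels, measured 11.97 in sPTK7 cells and was undetected on each of the other 6 arrays, at least 71.0-fold higher than in Chz cells. LRRC38 and PDPN lie near each other on chromosome 1, with 3 annotated genes between them, and were neighbours among the genes tested. A second PDPN probe was not detected on any of the 7 arrays. The size of these folds depended on the background correction: the log2 ratio of sPTK7 over Chz was 6.23 for PDPN and 6.15 for LRRC38, against 4.38 and 4.30 with no background correction and 4.50 and 4.41 in the authors' table.

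IFI27, an interferon-induced mitochondrial protein, read 9.71 in sPTK7 cells and was undetected in Chz cells (at least 14.9-fold higher), with 5.75 to 7.64 in the other lines. NXF3, of the nuclear RNA export factor family, read 9.16 in sPTK7 cells and was likewise undetected in Chz cells (at least 10.2-fold). TAFA2, a secreted chemokine-like protein, read 8.98 in sPTK7 cells against the floor in Chz cells (at least 8.96-fold). For each of these 3 genes the sPTK7 array stood more than 2-fold above every other line. ACOT1 and ACOT2, a cytosolic and a mitochondrial acyl-CoA thioesterase encoded side by side on chromosome 14, were at least 7.75-fold and at least 8.55-fold higher. ACOT1 read 8.77 and ACOT2 8.91 in sPTK7 cells and neither was detected in Chz cells, but near-identical sequences mean that their probes may read each other's transcript.

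GJB2, the gap junction protein connexin 26, behaved differently. It read 10.19 in sPTK7 cells and was undetected in Chz cells (at least 20.7-fold higher), but HT1080 cells read 9.44 and cPTK7/622-1070 cells 8.19. The other lines ran down to the floor, so the gene varied widely across the study. In all, 5 called genes were detected on the sPTK7 array and on none of the other 6: LRRC38, MARCHF11 at 7.16, PTGFR at 6.95, GDAP1L1 at 6.92 and DMRTB1 at 6.91, the last 4 of them dim and named after their values were seen.

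Downward, sPTK7 cells stood apart for EEF1A2, the elongation factor 1 alpha isoform of muscle and nerve. It read 6.83 in sPTK7 cells and 12.32 in Chz cells, 44.9-fold lower, while the other 5 lines held 11.34 to 13.27. DMKN, a secreted protein of the epidermis, was undetected in sPTK7 cells and read 9.97 in Chz cells (at least 16.8-fold lower), with 9.71 to 11.60 elsewhere. DLL3, a Notch ligand that restrains the pathway from within the cell, was undetected in sPTK7 cells and read 8.78 in Chz cells (at least 7.41-fold lower), with 8.74 to 9.65 elsewhere. All 3 genes were thus detected in every other line and low or absent in sPTK7 cells. In all, 35 called genes were undetected on the sPTK7 array and detected on the other 6, against 16 that were missing from the Chz array alone. The sPTK7 array also detected fewer genes of any kind. Over all 11995 genes 969 were detected on the Chz but not the sPTK7 array, and 647 on the sPTK7 but not the Chz array.

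MAGEE1, a melanoma antigen family member, read 6.04 in sPTK7 and 9.19 in Chz cells (8.92-fold lower), where PTK7 cells at 7.04 came nearest. AJAP1, a membrane protein of adherens junctions, read 6.20 in sPTK7 and 9.07 in Chz cells (7.28-fold lower), and PTK7 cells at 6.37 were again close to sPTK7 cells. SOX4, a high-mobility-group transcription factor, read 6.17 in sPTK7 and 8.07 in Chz cells (3.74-fold lower) against 7.86 to 8.82 in the other lines. S100A2, a calcium-binding protein of epithelia, read 9.15 in sPTK7 and 10.99 in Chz cells (3.58-fold lower). The other lines held S100A2 at 9.98 to 11.04, so the sPTK7 array was the low one.

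**Figure D3:**
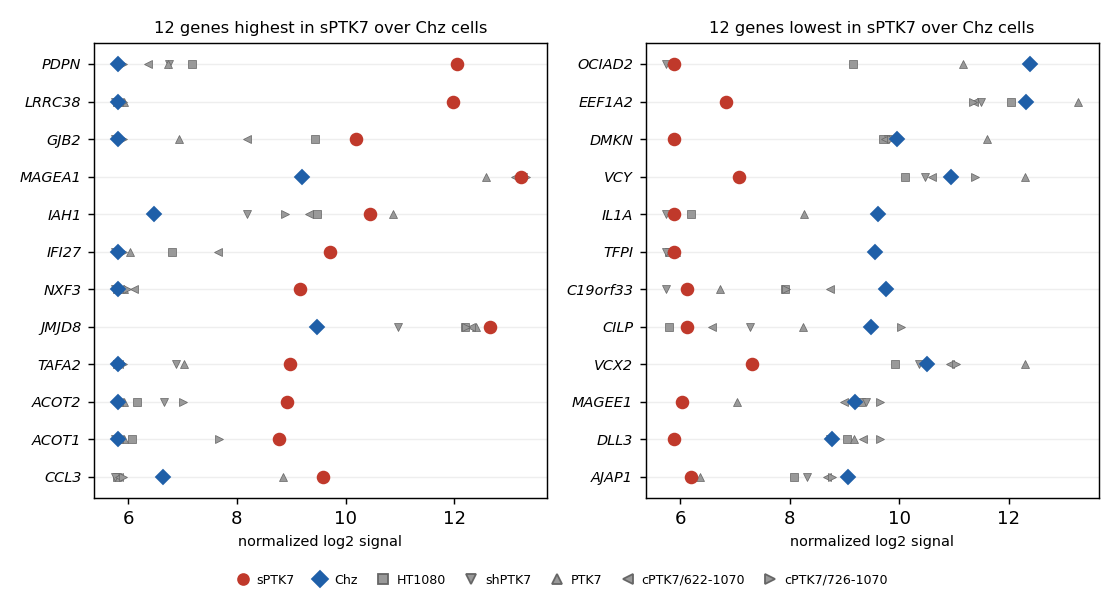
Normalized log2 signal on each of the 7 arrays for the 12 genes called with the largest fold higher (left panel) and lower (right panel) in sPTK7 than in Chz cells, with sPTK7 as red circles, Chz as blue diamonds and the other 5 lines in grey. PDPN and LRRC38 had the sPTK7 circle far to the right of every other mark, EEF1A2 and DMKN had it far to the left, and for MAGEA1 and TFPI the Chz diamond stood apart.

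The Chz array stood apart in its turn for genes that every other line held at a higher level. MAGEA1, a cancer/testis antigen on the X chromosome, read 13.23 in sPTK7 cells and 9.19 in Chz cells (16.4-fold higher in sPTK7 cells), with 12.58 to 13.32 in the other 5 lines. IAH1, an esterase that cleaves acetate esters, read 10.46 in sPTK7 and 6.48 in Chz cells (15.8-fold higher), with 8.18 to 10.87 elsewhere. JMJD8, a JmjC-domain protein of the endoplasmic reticulum, read 12.65 in sPTK7 and 9.48 in Chz cells (9.04-fold higher), with 10.96 to 12.40 elsewhere. These large differences were therefore low values on the Chz array more than high values on the sPTK7 array.

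Other genes were high in Chz cells. OCIAD2, a small membrane protein of mitochondria and endosomes, had the largest difference of all. It was undetected in sPTK7 cells and read 12.39 in Chz cells, at least 90.6-fold lower in sPTK7 cells, but it was detected at 9.17 in HT1080 and 11.17 in PTK7 cells and in no other line. Its log2 ratio of -6.50 was -4.84 with no background correction and -4.95 in the authors' table. TFPI, the inhibitor of the tissue factor pathway of coagulation, was undetected in sPTK7 cells and read 9.56 in Chz cells (at least 12.7-fold lower), and no other array detected it. FBLN1, ADAMTS2 and CSH2 were the other called genes found on the Chz array alone by their representing probes, at 7.65, 7.71 and 6.98. They encode the matrix protein fibulin-1, a procollagen N-proteinase and a placental lactogen.

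HSPB1, the small heat shock protein HSP27, read 6.60 in sPTK7 and 9.40 in Chz cells (6.97-fold lower in sPTK7 cells), and 6.01 to 7.30 in the other lines. HSPB8, a small heat shock protein that works with BAG3, went the other way, with 7.70 in sPTK7 cells and no detection in Chz cells (at least 3.69-fold higher), although both were under the 7.87 to 8.98 of the other lines. C19orf33 read 6.13 in sPTK7 and 9.76 in Chz cells (12.3-fold lower). S1PR1, a receptor for sphingosine 1-phosphate, read 9.0 in sPTK7 and 10.55 in Chz cells (2.94-fold lower), with 6.85 to 9.30 in the others. For C19orf33 the other lines ran from the floor to 8.75. The Chz array was thus the highest of the 7 for HSPB1, C19orf33 and S1PR1.

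PTK7 itself was undetected in sPTK7 cells and read 7.10 in Chz cells on its brighter probe, at least 2.31-fold lower in sPTK7 cells. HT1080 cells read 6.71 and PTK7 cells 6.81 on the same probe, and the remaining 3 lines were undetected. The second PTK7 probe was detected on the Chz array and not on the sPTK7 array, with a log2 ratio of -0.22 between their floored values. The positions of these probes relative to the transfected cDNAs are not given in the sources used here, and PTK7 cells did not stand above HT1080 cells, so the values do not check the labels. The PTK7 call was lost with no background correction, an offset of 50, a detection p under 0.01, the median over probes or the authors' table.

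Genes of planar cell polarity and the Wnt receptors lay lower in sPTK7 cells or went uncalled. Of 28 detected members 5 were lower and none higher, and 21 had a ratio below 0. Their median log2 ratio was -0.29, beside 0.02 over all genes, and between -0.57 and -0.21 under the 9 other ways of processing. That range takes in the setting without normalization between arrays, where the median of all genes was -0.27. Over all genes 1.92% were called higher and 2.32% lower, shares to be read beside this list and every later one. WNT5A, the ligand of noncanonical Wnt signaling, was the most different, at 7.17 in sPTK7 and 9.34 in Chz cells (4.49-fold lower in sPTK7 cells). The other lines read 5.91 to 7.65, so WNT5A was high in Chz cells. VANGL2, a core polarity protein of the membrane, was undetected in sPTK7 cells and read 7.18 in Chz cells (at least 2.44-fold lower), with detection in 4 of the other lines. DAAM1, the formin that links Dishevelled to RhoA, read 7.83 and 8.94 in sPTK7 and Chz cells (2.15-fold lower), and the cadherin CELSR2 6.68 and 7.76 (2.12-fold lower). The other lower member was PTK7 itself. Of these 5 genes, only WNT5A was still called with no background correction or in the authors' table.

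Wnt targets and antagonists were divided, with 1 higher and 3 lower of 13 detected and a median of 0.20. SFRP1, a secreted Wnt antagonist, was undetected in sPTK7 cells and read 8.36 in Chz cells (at least 5.53-fold lower), with 7.97 in HT1080 and 7.32 in PTK7 cells. TNFRSF19, a receptor of the tumor necrosis factor family, read 6.94 in sPTK7 and 8.69 in Chz cells (3.37-fold lower). LGR5, the R-spondin receptor of stem cells, read 7.03 in sPTK7 cells against the floor in Chz cells (at least 2.32-fold higher). AXIN2, the feedback target most often used to read β-catenin signaling, was uncalled at 6.84 in sPTK7 and 5.90 in Chz cells, a 1.92-fold difference. The third lower gene of the list was SOX4.

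The interleukin 1 axis held large differences in both directions, with 2 of 11 detected genes higher and 2 lower and a median of 0.13. IL1A and IL1B, neighbouring genes for the alpha and beta forms of interleukin 1, were both lower in sPTK7 cells. IL1A was undetected in sPTK7 cells and read 9.62 in Chz cells (at least 13.2-fold lower). IL1B read 10.52 in sPTK7 and 11.61 in Chz cells (2.13-fold lower). The other lines placed the pair differently: for IL1A only PTK7 cells at 8.27 and HT1080 cells at 6.20 had a signal, whereas for IL1B both sPTK7 and Chz cells were above all other lines, PTK7 cells following at 10.49. Chz cells had the highest level of both genes, and sPTK7 cells were high for IL1B alone.

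IL24, a cytokine of the interleukin 10 family counted with this list, read 11.92 in sPTK7 and 9.22 in Chz cells (6.51-fold higher in sPTK7 cells), and PTK7 cells exceeded both at 13.15. CASP1, the protease that matures interleukin 1β, read 8.44 in sPTK7 and 7.29 in Chz cells (2.21-fold higher), a call lost with no background correction, with an offset of 50, without normalization between arrays and in the authors' table. Of 23 detected genes of the cytokine list 3 were higher, all of them chemokines, with none lower and a median of 0.29. Without normalization between arrays the median of the list was 0.01, where that of all genes was -0.27. CCL3, a chemoattractant of monocytes and lymphocytes, read 9.58 in sPTK7 and 6.64 in Chz cells (7.65-fold higher), and its copy CCL3L1 9.17 and 6.66 (5.67-fold higher). PTK7 cells read 8.86 for CCL3 and 8.64 for CCL3L1, close to sPTK7 cells, and the probes of these copies may read each other's transcript. CCL20, the ligand of CCR6, read 9.55 in sPTK7 and 7.38 in Chz cells (4.50-fold higher) and at most 7.86 elsewhere. IL6 and CXCL8, the widely used inflammatory readouts, were uncalled, at 6.47 and 11.88 in sPTK7 cells and 6.44 and 11.50 in Chz cells.

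Interferon-stimulated genes are induced together through the factor ISGF3, which binds the interferon-stimulated response element (ISRE). Here 39 were detected, 4 were higher and 4 lower in sPTK7 cells, and the median was -0.09. With 75th percentile scaling the median of the list was 0.02, where that of all genes was 0.06. The higher genes were IFI27, IFITM1, UBA7 and PSMB8, and the lower ones OAS2, OAS3, IFIT1 and DDX60. Promoters of the called members that hold the element are printed to show that both directions occur with it. The motif searched was GAAANNGAAA on both strands in the 250 bases before each annotated start in RefSeq (GRCh38.p14), and its matches stand in capitals, 5′ to 3′ on the strand of the gene.
IFI27 (chr14:94110486-94110735, plus strand): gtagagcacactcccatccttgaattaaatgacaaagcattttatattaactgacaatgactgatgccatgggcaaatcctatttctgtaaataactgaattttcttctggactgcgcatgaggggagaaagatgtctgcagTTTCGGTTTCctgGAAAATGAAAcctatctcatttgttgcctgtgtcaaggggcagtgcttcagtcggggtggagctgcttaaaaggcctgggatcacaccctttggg
IFITM1 (chr11:313790-314039, plus strand): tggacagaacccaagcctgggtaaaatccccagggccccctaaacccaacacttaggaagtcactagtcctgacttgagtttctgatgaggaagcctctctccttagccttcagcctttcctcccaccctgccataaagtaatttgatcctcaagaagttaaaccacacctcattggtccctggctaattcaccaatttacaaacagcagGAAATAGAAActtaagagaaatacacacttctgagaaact
OAS3 (chr12:112938224-112938473, plus strand): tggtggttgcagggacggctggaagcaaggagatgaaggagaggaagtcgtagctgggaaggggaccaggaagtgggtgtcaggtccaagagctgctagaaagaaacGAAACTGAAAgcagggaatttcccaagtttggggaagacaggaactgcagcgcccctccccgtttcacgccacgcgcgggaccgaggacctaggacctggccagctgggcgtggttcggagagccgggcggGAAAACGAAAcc
IFIT1 (chr10:89392373-89392622, plus strand): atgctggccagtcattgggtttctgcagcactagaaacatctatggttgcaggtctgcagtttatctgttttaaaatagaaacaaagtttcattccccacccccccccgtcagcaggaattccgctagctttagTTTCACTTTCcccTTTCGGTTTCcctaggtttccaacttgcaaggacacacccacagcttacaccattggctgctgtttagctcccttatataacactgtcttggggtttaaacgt
DDX60 (chr4:168318753-168319002, minus strand): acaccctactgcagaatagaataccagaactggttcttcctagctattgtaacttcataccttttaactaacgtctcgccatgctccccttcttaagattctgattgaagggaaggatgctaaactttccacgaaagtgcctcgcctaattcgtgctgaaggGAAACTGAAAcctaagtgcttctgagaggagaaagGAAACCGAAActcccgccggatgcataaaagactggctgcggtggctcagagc

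The motif was present in 5 of the 6 called interferon-stimulated genes with a RefSeq promoter, PSMB8 being the exception and UBA7 and OAS2 having no entry. Among 33 detected members with a promoter 23 held it (69.7%), against 1014 of 27305 genes (3.71%). Matches began at -108 and -95 from the start in IFI27, at -40 in IFITM1, at -143 and -12 in OAS3, at -116 and -103 in IFIT1, and at -88 and -53 in DDX60. IFI27 had a second annotated start, whose window held the same elements. Among called genes of any kind the motif was in 8 of 168 higher (4.76%) and 8 of 227 lower genes (3.52%), near the 3.71% of all genes. Among the called interferon genes printed above, both higher and lower ones held the motif.

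The levels separated the interferon genes by line. IFITM1, a membrane protein that blocks viral entry, read 9.75 in sPTK7 and 8.14 in Chz cells (3.07-fold higher in sPTK7 cells) and at most 8.41 in the others. UBA7, the E1 enzyme for ISG15, read 7.74 in sPTK7 and 6.32 in Chz cells (2.68-fold higher). PSMB8, an immunoproteasome subunit, read 11.08 in sPTK7 and 10.02 in Chz cells (2.09-fold higher). For all 4 higher genes the sPTK7 array was the highest of the 7.

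OAS2 and OAS3, adjacent genes for enzymes that make 2′-5′ oligoadenylates and so activate RNase L, were lower in sPTK7 cells. OAS2 was undetected in sPTK7 cells and read 7.93 in Chz cells (at least 4.10-fold lower), with the other lines at 6.10 or below. OAS3 read 6.14 in sPTK7 and 7.61 in Chz cells (2.78-fold lower). IFIT1, which binds foreign 5′ ends of RNA, read 8.23 in sPTK7 and 9.54 in Chz cells (2.47-fold lower), and DDX60, a helicase, read the floor in sPTK7 and 6.91 in Chz cells (at least 2.02-fold lower). For all 4 lower genes the Chz array was the highest of the 7. ISG15 and IFI6, 2 strongly inducible members, were uncalled, at 10.95 and 11.35 in sPTK7 cells and 10.57 and 11.55 in Chz cells. The 13 detected genes of MHC and antigen presentation had no call in either direction and a median of 0.09. With no background correction or in the authors' table IFI27 and IFITM1 were the interferon genes still called, and all 4 lower calls were lost.

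**Figure D4:**
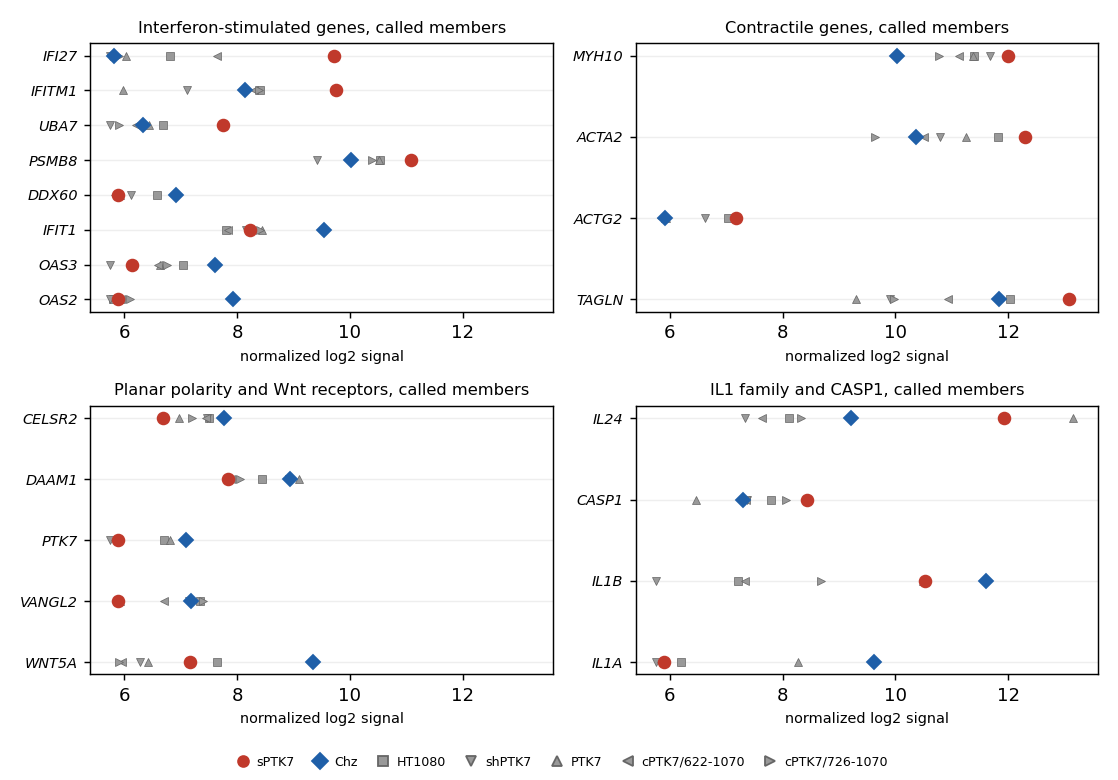
Normalized log2 signal on each of the 7 arrays for the called members of 4 gene lists, with sPTK7 as red circles, Chz as blue diamonds and the other 5 lines in grey. The sPTK7 circle was rightmost for IFI27, IFITM1, UBA7 and PSMB8, the Chz diamond for OAS2, OAS3, IFIT1 and DDX60, and the 4 contractile genes had the sPTK7 circle at the right end.

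Contractile genes, many of them targets of serum response factor (SRF), had calls in the higher direction alone. Of 19 detected 4 were higher and none lower, with a median of 0.28 and 12 ratios above 0. The median stayed between 0.02 and 0.35 under the other ways of processing, the lowest being without normalization between arrays, where the median of all genes was -0.27. MYH10, the heavy chain of nonmuscle myosin IIB, read 11.99 in sPTK7 and 10.03 in Chz cells (3.90-fold higher in sPTK7 cells). The other lines held 10.77 to 11.68 between them. ACTA2, smooth muscle α-actin, read 12.29 in sPTK7 and 10.37 in Chz cells (3.79-fold higher), and TAGLN, the actin-binding protein SM22, 13.08 and 11.84 (2.35-fold higher). ACTG2, enteric smooth muscle γ-actin, read 7.17 in sPTK7 and 5.91 in Chz cells (2.41-fold higher). In HT1080 cells ACTA2 read 11.82, TAGLN 12.04 and ACTG2 7.04, under sPTK7 cells by less than 2-fold for ACTA2 and ACTG2. MYL9, a regulatory myosin light chain, was uncalled at 9.56 in sPTK7 and 8.98 in Chz cells, 1.49-fold.

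SRF binds the CArG box, searched here only as the exact pattern CCWWWWWWGG, where W is A or T. ACTG2 was the called contractile gene with a match within the same window. It is printed with both boxes in capitals, which began at -110 and -73 from the start.
ACTG2 (chr2:73892758-73893007, plus strand): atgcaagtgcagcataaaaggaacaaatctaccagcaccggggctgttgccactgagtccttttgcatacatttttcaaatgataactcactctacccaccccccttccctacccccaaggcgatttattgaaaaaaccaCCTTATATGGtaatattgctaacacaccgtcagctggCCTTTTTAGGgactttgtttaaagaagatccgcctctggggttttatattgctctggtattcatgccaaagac

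Over the list 8 of 17 detected members with a promoter held a CArG box in this window, beside 1.44% of 27305 genes. Of the 3 called members with a promoter 1 held it. Among called genes of any kind the box was in 2 of 168 higher (1.19%) and 2 of 227 lower genes (0.88%). The ACTG2 call was lost with no background correction, an offset of 50, a detection p under 0.01 or the authors' table. ACTA2 and MYH10 had no match to the exact pattern in these 250 bases, and TAGLN had no entry. Boxes with a C or G among the inner bases were not searched, so a missing match does not show that a gene lacks a CArG box.

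Of 21 collagens and collagen enzymes 3 were higher and 1 lower (median -0.02). COL8A1, a short-chain network collagen, read 9.79 in sPTK7 and 7.51 in Chz cells (4.85-fold higher in sPTK7 cells), although its log2 ratio of 2.28 was 0.95 as the median over probes, which ended the call. LOX, the lysyl oxidase that starts collagen crosslinks, read 11.48 in sPTK7 and 9.98 in Chz cells (2.82-fold higher), and COL12A1 8.27 and 7.21 (2.09-fold higher). For these 3 genes sPTK7 cells were the highest of the 7 lines. COL7A1, the anchoring fibril collagen, read 7.64 in sPTK7 and 8.75 in Chz cells (2.17-fold lower).

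Of 31 noncollagen matrix proteins TNC and HAS2 were higher and FBLN1 was lower (median 0.03). TNC, the antiadhesive glycoprotein tenascin-C, read 10.27 in sPTK7 and 8.89 in Chz cells (2.61-fold higher), and the hyaluronan synthase HAS2 read 10.54 in sPTK7 and 9.32 in Chz cells (2.33-fold higher). TNC lay at 9.66 to 10.30 elsewhere, so the Chz array was the low one. FBLN1 was undetected in sPTK7 cells (at least 3.38-fold lower), and the Chz value of 7.65 was the only detection of the probe that represents it. Its log2 ratio of -1.76 was -0.29 as the median over detected probes, which ended the call. Of 14 integrins none was higher and 2 were lower (median -0.26, between -0.49 and -0.14 under the other ways of processing). That range takes in the setting without normalization between arrays, where the median of all genes was -0.27. ITGA6, the laminin-binding α6 chain, read 8.95 in sPTK7 and 10.22 in Chz cells (2.41-fold lower), and the leukocyte β7 chain ITGB7 6.28 and 7.35 (2.10-fold lower).

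Of 16 cadherins, catenins and junction proteins PDPN and GJB2 were higher and AJAP1, CDH11 and ALCAM lower (median -0.13). CDH11, a mesenchymal cadherin, was undetected in sPTK7 cells and read 7.99 in Chz cells (at least 4.29-fold lower), a call lost with no background correction. It varied more across the study than between these 2 lines, at 11.05 in cPTK7/622-1070 and 11.92 in cPTK7/726-1070 cells. ALCAM, an immunoglobulin-family adhesion molecule, read 12.19 in sPTK7 and 13.20 in Chz cells (2.01-fold lower). CDH2, or N-cadherin, was uncalled at 13.30 in sPTK7 and 13.55 in Chz cells.

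Of 25 detected pericellular proteases and inhibitors 1 was higher and 2 were lower (median 0.02). MMP3, or stromelysin-1, read 10.10 in sPTK7 and 8.14 in Chz cells (3.90-fold higher in sPTK7 cells), but the other lines ran from 7.68 to 11.10 around both. The lower members were TFPI and SERPINE2, a serpin that blocks thrombin and urokinase, and SERPINE2 read 13.77 in sPTK7 and 14.80 in Chz cells (2.05-fold lower). The SERPINE2 call was lost with 75th percentile scaling, with the pair normalized alone and in the authors' table. MMP14, which encodes MT1-MMP, was uncalled at 8.24 in sPTK7 and 7.88 in Chz cells, and ADAM17 at 9.94 and 9.76. MMP14 and ADAM17, whose products cut PTK7, thus differed by under 2-fold.

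Cancer/testis antigens, germline genes that tumors turn on, had 4 genes higher and 5 lower of 29 detected (median 0.20). Without normalization between arrays the median of the list was -0.11, where that of all genes was -0.27. The higher ones were MAGEA1, PAGE1, TEX19 and CSAG3. PAGE1 read 7.46 in sPTK7 cells and was undetected in Chz cells (at least 3.12-fold higher), and all the other lines were above both at 7.77 to 11.31. The lower ones all belonged to the VCX/VCY family of the X and Y chromosomes, whose near-identical sequences mean that their probes may share signal. VCY read 7.07 in sPTK7 and 10.95 in Chz cells (14.7-fold lower), and VCX2 7.31 and 10.51 (9.13-fold lower). In the other 5 lines VCY held 10.11 to 12.30 and VCX2 9.93 to 12.30, so sPTK7 cells were the low line. VCX3B, VCX and VCX3A were low in both lines. VCX3B was undetected in sPTK7 cells and read 7.93 in Chz cells (at least 4.11-fold lower), against 10.85 to 12.96 elsewhere.

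BEX1, an X-linked adaptor of neural tissue, showed the same kind of shared departure. It read 10.24 in sPTK7 and 7.91 in Chz cells (5.05-fold higher in sPTK7 cells), whereas the other 5 lines held 13.19 to 14.35. BEX2, its paralog, went the other way at 7.38 in sPTK7 and 8.65 in Chz cells (2.41-fold lower). These were the calls among 16 detected BEX, TCEAL and ARMCX genes (median -0.02). VGF, a secreted neuropeptide precursor that growth factors induce, read 9.92 in sPTK7 and 7.73 in Chz cells (4.57-fold higher) and 9.99 to 10.87 in the other lines. It was the only call among 19 ERK feedback and output genes (median -0.23).

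Of 17 genes of cholesterol synthesis, uptake and export none was higher and 3 were lower (median -0.19). ABCA1, the exporter of cholesterol to apolipoprotein A1, read 8.68 in sPTK7 and 9.94 in Chz cells (2.41-fold lower in sPTK7 cells), and the synthesis enzymes MSMO1 and CYP51A1 were 2.04-fold and 2.03-fold lower. For these 3 genes the Chz array was the highest of the 7. The MSMO1 call was lost with no background correction, 75th percentile scaling or the pair normalized alone. The CYP51A1 call was lost with no background correction, an offset of 50 or the authors' table. Of 16 fatty acid genes ACOT1, ACOT2 and FADS2 were higher and FABP5 and FABP4 lower (median 0.18). FABP5, a fatty acid carrier, was undetected in sPTK7 cells and read 8.32 in Chz cells (at least 5.37-fold lower), with 6.59 to 10.73 elsewhere, and its neighbour FABP4 read 8.43 in sPTK7 and 9.71 in Chz cells (2.42-fold lower). FADS2, the fatty acid desaturase, read 7.40 in sPTK7 and 6.03 in Chz cells (2.57-fold higher).

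Further sets of signaling genes had between 1 and 4 calls each. Over all genes 4.24% were called, so a single call in most of these sets lies near that share. DDIT4, the stress-induced inhibitor of mTORC1, was the only call among 24 ATF4 and unfolded protein response genes, 2.42-fold higher in sPTK7 cells. ID3, an inhibitor of basic helix-loop-helix factors, was the only call among 22 TGF-β and BMP genes, at 13.03 in sPTK7 and 11.85 in Chz cells (2.26-fold higher), with the other lines at 12.91 to 13.28. ERBB2, the receptor tyrosine kinase, read 8.77 in sPTK7 and 9.88 in Chz cells (2.16-fold lower) and was the only call among 8 EGF family and ERBB genes. In the Notch pathway LFNG, a glycosyltransferase that modifies the receptor, was 2.65-fold higher and the target HES1 at least 2.39-fold lower, of 9 detected. CA12, a membrane carbonic anhydrase, was undetected in sPTK7 cells and read 8.15 in Chz cells (at least 4.77-fold lower), and with LOX it gave the 2 calls among 25 hypoxia and glycolysis genes. NUAK2, a kinase of the YAP pathway, was 2.27-fold higher and the only call of 18 YAP and TEAD targets. AKR1B10, an aldo-keto reductase, was 2.14-fold lower and the only call among 15 NRF2 targets and metallothioneins. SEMA5A, a semaphorin, was at least 2.23-fold higher and the only call among 28 ephrin, semaphorin and guidance genes, whose median was -0.34. S1PR1 was the only call among 19 genes of G protein receptors and lipid mediators. S100A4 and ANXA6 were higher (2.11-fold each) and S100A2 and ANXA4 lower among 17 S100 and annexin genes.

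**Figure D5:**
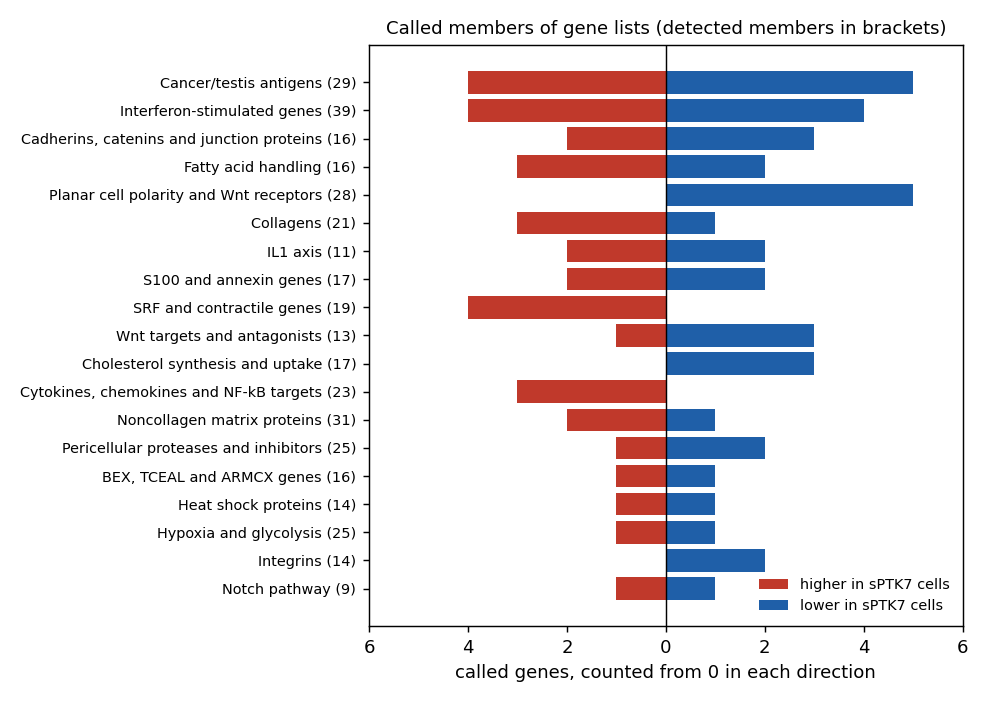
Number of called members higher (red, to the left) and lower (blue, to the right) in sPTK7 cells for the 19 gene lists with at least 2 calls, with the number of detected members in brackets. Contractile genes and cytokines had calls in the higher direction alone, and planar polarity, cholesterol and integrin genes in the lower direction alone. Over all genes 1.92% were called higher and 2.32% lower.

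How far single calls depended on the processing was counted for the 81 named genes with a call. With no background correction 29 calls were lost, and 28 were lost in the authors' table, of which 27 were shared: PTK7, CASP1, OAS2, OAS3, COL7A1, COL12A1, FBLN1, ITGB7, ACTG2, NUAK2, SOX4, LGR5, VANGL2, DAAM1, CYP51A1, FADS2, DDIT4, HSPB8, AKR1B10, VCX3B, BEX2, ERBB2, HES1, SEMA5A, ANXA4, ANXA6 and S100A4. CDH11 and MSMO1 were lost in addition with no background correction, and SERPINE2 in the authors' table. An offset of 50 ended 16 of the same calls. The median over probes ended 8, those of COL8A1, ITGA6 and LFNG besides PTK7, DAAM1, FBLN1, NUAK2 and S100A4. Without normalization between arrays 9 were lost, TAGLN, HAS2, ID3, CASP1, COL12A1, NUAK2, DDIT4, S100A4 and ANXA6. A detection p under 0.01 ended 7, those of PTK7, ITGB7, ACTG2, LGR5, VANGL2, HES1 and SEMA5A, and 75th percentile scaling and the pair normalized alone each ended those of SERPINE2 and MSMO1. None of the 24 leading genes lost its call under these settings, but 22 of their folds moved by over 1.5 times with no background correction, and 22 in the authors' table.

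No call in either direction was made among 32 cell cycle genes (median -0.02), 22 p53 targets (0.17), 21 immediate early, AP-1 and CREB targets (0.07) and 11 replication-dependent histones (0.36). The histone median lay farthest of these from the 0.02 of all genes. Housekeeping genes also had no call among 11, with a median of 0.11 and ACTB at 15.91 in sPTK7 and 15.81 in Chz cells. Of 7 mesenchymal markers 4 were detected, VIM at 15.78 on both arrays, and S100A4 was called. Of 9 epithelial, 8 leukocyte and blood and 7 endothelial markers, 4, 3 and 1 were detected, and none was called.

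The migration genes that the study's text names for Chz cells included 14 lower and no higher genes of 30 detected, with a median of -0.95. They were chosen on the same Chz array, and the count is therefore not independent evidence of its direction. Of the 5 detected genes named for sPTK7 cells CCL3 was higher and AJAP1, CDH11 and IL1B were lower. These genes were likewise chosen on the same sPTK7 array, so their calls are not independent evidence. MAGEC1 was undetected on both arrays and has no fold. SPP1, or osteopontin, was uncalled at 8.50 in sPTK7 and 8.41 in Chz cells.

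Among neighbours in the order of the tested genes 29 pairs were both called, so that 5.74% of the places beside a called gene held another, beside 4.23% of the places beside any gene. Of the 29 pairs 23 had the same direction (8 higher, 15 lower) and 6 the opposite, whereas over all 11956 neighbouring pairs 52.4% had ratios of the same sign. The same-direction pairs included LRRC38 with PDPN, OAS3 with OAS2, ACOT1 with ACOT2, IL1A with IL1B, FABP5 with FABP4, VCX2 with VCX3B and DMKN with SBSN, a further secreted protein of the epidermis. SBSN read 6.64 in sPTK7 and 8.97 in Chz cells (5.01-fold lower). Some of these pairs are near-identical copies, namely ACOT1 with ACOT2, VCX2 with VCX3B, and VCY with VCY1B, a further lower pair. Their probes may read each other's transcript, so such a pair need not be 2 separate differences. BEX1 and NXF3 were neighbours on the X chromosome and both higher, although sPTK7 cells were low for BEX1 and high for NXF3 against the other lines. By chromosome the median log2 ratio ran from -0.19 on chromosome 13 to 0.13 on chromosome 22.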

How the data were processed

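RNA of 7 HT1080-derived lines was hybridised to 7 arrays of 1 Illumina HumanHT-12 v4 chip, 1 array per line, so no replicate check or p for a gene was possible. The deposited non-normalized intensity of each of 47230 probes is a mean bead signal that the authors extracted with the BeadArray Reader. Beside it stands the detection p-value, as deposited. The authors' normalized table (GeneSpring GX; intensity on a linear scale, method not given in the sources used here) served as an alternative. Welch's t test, named in the study's methods, was not run, since 1 array per line gives no replicate values.

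The signals were corrected with neqc of limma 3.58.1 in R 4.3.3 (normexp with the background taken from the detection p-values, an offset of 16, quantile normalization over 7 arrays, log2). Through the platform annotation 30112 probes had 1 gene, 8 several and 17110 none. Each gene was represented by the probe with the highest mean log2 signal. Calls needed a 2-fold difference and detection (p under 0.05) by the brighter array, with signals under an array's lowest detected signal raised to it. Between 19045 and 20515 probes were detected per array, 19304 for sPTK7 and 19900 for Chz. Precision is limited by the number of arrays. The median non-normalized signal was 174 on the sPTK7 and 178 on the Chz array, and the 75th percentile 356 and 416. The remaining steps used Python 3.11.15, numpy 2.4.6, pandas 2.3.3 and matplotlib 3.10.9.

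Genes were named by rule: PTK7, the 12 called genes with the largest fold in each direction, up to 4 called members per list with the largest fold, and SPP1, PDPN, MAGEC1, IL1B and CDH11 with each of their probes. Uncalled members, the genes found on a single array, neighbours and further list members were named after their values were seen. The members and the gene lists were chosen with earlier results of these data known. On simulated data for sPTK7 against Chz over 20045 genes, 95.5% of 67 genes changed 2.5-fold, 92.5% of 67 changed 4-fold and 95.5% of 66 changed 8-fold were called, and 0 of 11358 unchanged genes. The simulated sPTK7 array was the Chz array with small noise added, and the changed genes were drawn from clearly detected ones. Its unchanged genes had a median fold of 1.07, whereas the real log2 ratios had quartiles of -0.26 and 0.27. The simulation checks the steps and cannot give the rate of false calls between separate lines.

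Alternatives were no background correction, an offset of 50, 75th percentile scaling, no normalization between arrays, the pair normalized alone, the authors' table, no floor, a detection p under 0.01, the median over a gene's detected probes, any probe, and thresholds of 4-fold and 1.5-fold.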

Additional observations from a re-analysis of the deposited data

Results flagged for a closer look

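Signal outside the named genes was found in probes that have no gene in the annotation, which enter none of the comparisons. Of 5577 such probes detected on either array, 106 were called higher and 104 lower in sPTK7 than in Chz cells. Among the 11995 genes 1.92% were called higher and 2.32% lower, so calls were no more frequent among these probes than among genes. 37 of them were at least 2-fold brighter in sPTK7 cells than in both Chz and HT1080 cells, and 40 were at least 2-fold brighter in Chz cells than in both sPTK7 and HT1080 cells.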

How the results depend on the processing

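Each line had 1 array, so no array could be left out, and no difference carries a spread. No paired analysis was possible because each line had 1 array and shared no replicate number. No called gene changed direction to the opposite call under any other way of processing. In sPTK7 against Chz cells 230 genes were higher and 278 lower. The counts were 67 and 74 with no background correction, 70 and 81 in the authors' table, 134 and 169 with an offset of 50, 339 and 249 with 75th percentile scaling, 118 and 777 without normalization between arrays, 388 and 470 without the floor, 281 and 387 when any probe could make the call, 36 and 44 at 4-fold, and 1022 and 1092 at 1.5-fold. They were 262 and 300 with the pair normalized alone, 183 and 210 at a detection p under 0.01, and 199 and 251 with the median over probes. The share of calls that were higher was 45.3%, against 57.7% with 75th percentile scaling and 13.2% without normalization, where the median log2 ratio of all genes was -0.27; the cause was not tested. Of 81 named genes with a call, 52 kept it with no background correction and 53 in the authors' table. The place among the 21 pairs was 10 with 75th percentile scaling, 14 without normalization and 10 without the floor. sPTK7 cells alone lay outside the range of the other lines for 161 called genes, and for 47 with no background correction, 51 in the authors' table and 246 without the floor. Chz cells alone did for 175, and for 376 without normalization, 44 with no background correction and 47 in the authors' table. Both did on opposite sides for 102, and for 184 with 75th percentile scaling, 257 without normalization, 32 with no background correction, 35 in the authors' table and 227 without the floor. Both did on the same side for 30, and for 9 with no background correction and 8 in the authors' table. Neither did for 40, and for 9 with no background correction, 10 in the authors' table and 83 without the floor. Signals near the floor limit the dim genes, whose folds are bounds.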
